A study of Homo sapiens with 6 samples.

Results

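The genes of cholesterol and fatty acid synthesis were followed in TCam-2, a human cell line established from a testicular cancer, a seminoma. The set holds 31 of the 62700 genes in the deposited table: 5 regulators of the sterol response, 8 genes of the mevalonate and isoprenoid steps, 3 of the steps from squalene to lanosterol, 9 of the steps from lanosterol to cholesterol, 2 of sterol transport and 4 of fatty acid synthesis. They were chosen by name from pathway knowledge, found in the table by matching Ensembl identifiers to symbols, and do not cover every gene of the pathway. All 31 passed the filter on low values, as did 14292 genes in all. Polyadenylated RNA was measured in 3 groups of 2 libraries: WT, non-transduced TCam-2 cells; GFP, cells transduced with GFP_FLAG; and RBMXL3, cells transduced with RBMXL3_FLAG, a tagged form of an RNA-binding protein. All groups were grown in the same RPMI medium with serum. The promoter that drives the transgenes, and whether transduced cells were clones or pools, are not given in the labels. Nothing in the labels says that the 2 libraries of a group came from separate cultures, so p-values measure only the spread between these libraries, which may be technical.

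Recovered reads per library ran from 23080795 to 29318007 over the WT and GFP libraries and were 17685680 and 21023355 for RBMXL3. The RBMXL3 libraries were thus the shallowest of the 6. RBMXL3 itself had 0 reads in each of the 4 control libraries and 84 and 68 reads in the RBMXL3 libraries, which fits the labels. GFP replicate 1 had the lowest share of mitochondrial reads, 1.31% against 2.02% to 3.02% in the other libraries. Seminoma markers were present in every library: POU5F1 ranged from 1373 to 2126 TPM, salmon's abundance per transcript length and library total, and SOX17 from 121 to 150 TPM. In the gene table, 3 of 12 seminoma markers fell and 1 rose in RBMXL3 against both controls, beside 6.86% and 6.88% of all genes. KIT, LIN28A and SALL4 fell by 0.39, 0.37 and 0.39 on the log2 scale against GFP and by 0.80, 0.33 and 0.32 against WT (limma). NANOS3 rose by 0.50 and 0.63. KIT also fell by 0.41 in GFP against WT (limma adjusted p = 0.0407). With TPM summed per gene, KIT, LIN28A and SALL4 did not reach a limma adjusted p under 0.05 in any comparison. LIN28A changed there by -0.01 against GFP (limma adjusted p = 0.967). NANOS3 and POU5F1 rose there against both controls, POU5F1 by 0.53 and 0.54 (limma adjusted p = 0.0404 and 0.0292). The part of these shifts in the results was not tested.

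Cells build cholesterol from acetyl-CoA through mevalonate, the isoprenoid diphosphates, squalene and lanosterol, and the isoprenoid intermediates are also used to prenylate proteins and to make ubiquinone and dolichol. Transcription of these genes is controlled by the SREBP proteins, encoded by SREBF1 and SREBF2. When sterols are plentiful, the SREBPs are held in the endoplasmic reticulum with SCAP by the INSIG proteins; when sterols fall, they move to the Golgi, are cleaved, and enter the nucleus to activate genes of sterol and fatty acid synthesis. Growing tumour cells use both pathways to make membranes.

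In the gene table, the sterol genes MSMO1, LBR, STARD4, SQLE and MVK rose in RBMXL3 cells against both controls. ELOVL6, a fatty acid gene, and NPC1, a sterol transport gene, fell against both in the gene table. Neither was called in summed TPM, where both overlapped the controls. Of the 5 genes that rose, SQLE and MVK alone were called against both controls in summed TPM. Among the 31 genes, 9 (29%) were called against GFP at an adjusted p under 0.05 (limma), beside 20.9% of all genes tested. Of these, 5 were higher and 4 lower, beside 10.5% and 10.4% of all genes. Against WT, 16 (51.6%) were called, beside 29.9% of all genes: 13 higher, beside 14.6%, and 3 lower, beside 15.3%. The 7 called against both controls were 22.6% of the set, beside 13.7% of all genes, with 5 higher and 2 lower, beside 6.88% and 6.86%. GFP itself differed from WT at 4 of the 31 (12.9%), beside 3.67% of all genes. All 4 were higher and 0 lower, beside 1.76% and 1.91% of all genes. The median log2 change of the set was 0.04 against GFP and 0.29 against WT, beside 0.00 and -0.01 over all genes, and 0.20 for GFP against WT. The 2 comparisons of RBMXL3 share the RBMXL3 libraries, and those with WT share the WT libraries, so they are set side by side here and not counted as separate evidence. In bulk RNA, a change in the number of cells that express a gene and a change in RNA per cell cannot be told apart.

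These counts depended on single libraries. Leaving out a library of the group not compared kept the log2 change of a comparison, and altered only the pooled spread and the genes tested. The share of all genes called in these refits is not given, so a shift of the set cannot be told from one over all genes. Against GFP, 14 genes were called without GFP replicate 2 and 4 without either RBMXL3 replicate. Against WT, 8 and 9 were called without WT replicate 1 and 2, and 8 and 6 without RBMXL3 replicate 1 and 2. Calls against both controls fell to 4 without either WT replicate and to 3 without either RBMXL3 replicate. For GFP against WT the count was 0 without WT replicate 1, WT replicate 2 or RBMXL3 replicate 1, 1 without RBMXL3 replicate 2, 8 without GFP replicate 1 and 16 without GFP replicate 2. LBR, MSMO1 and STARD4 kept their calls against both controls in all 6 of these refits. Without the filter on low values, LBR alone was called against both controls, beside 673 of the 30989 genes then tested. Both RBMXL3 libraries lay outside all 4 controls for 15 of the 31 genes, beside 46.1% of all genes, above them for 10 and below for 5, beside 22.5% and 23.6%. The median absolute log2 difference between replicates over the set came to 0.10 for WT, 0.26 for GFP and 0.04 for RBMXL3. Over all genes tested it was 0.12, 0.18 and 0.08, so the GFP libraries differed most in both.

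**Figure D1:**
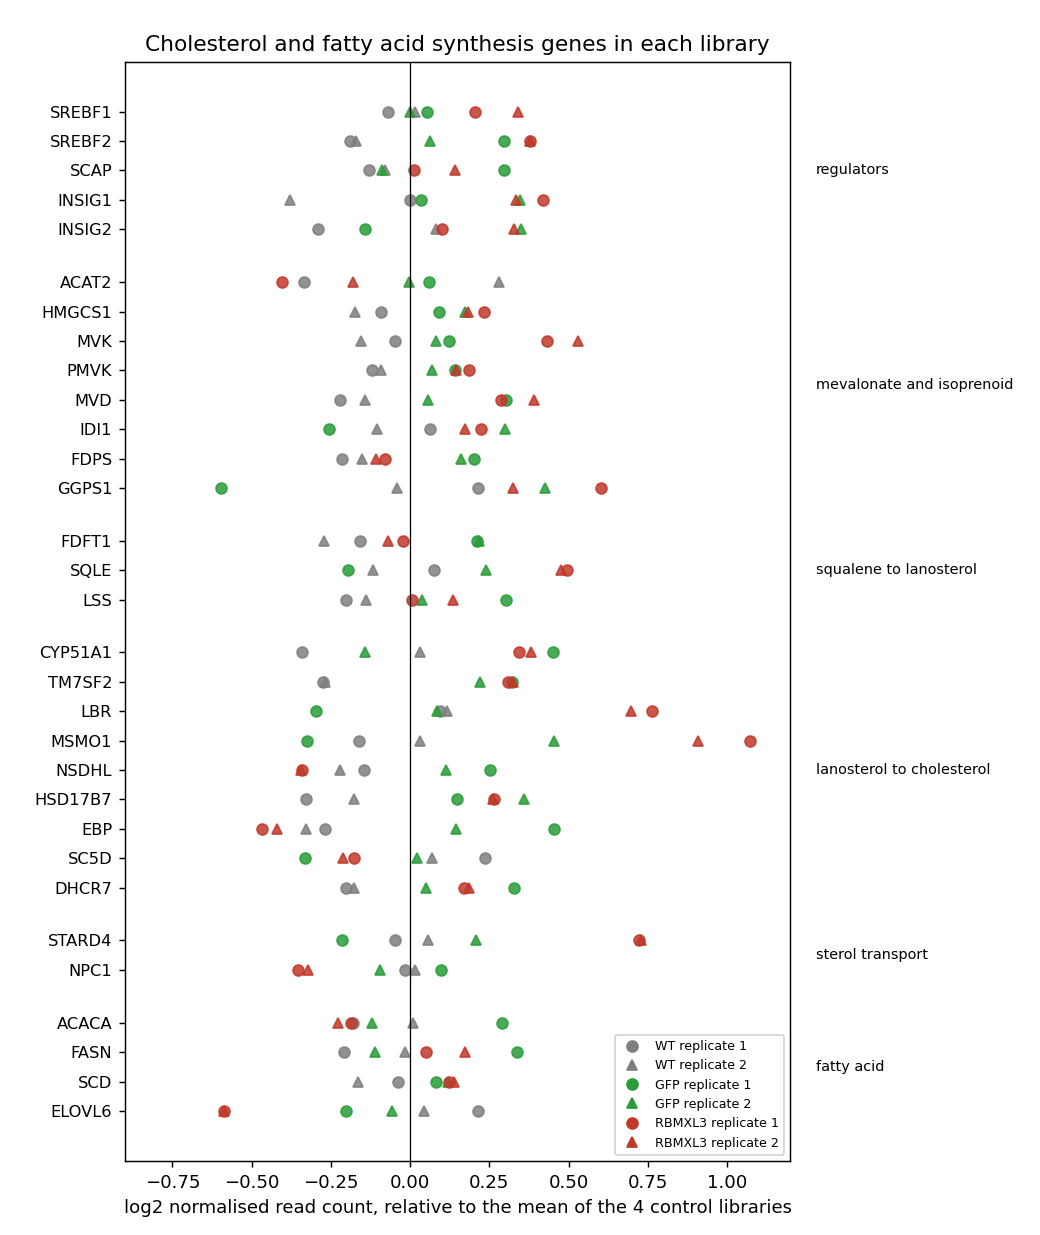
Log2 normalised read count of each gene in the 6 libraries, relative to the mean of the 4 control libraries, in order of pathway role. The RBMXL3 points of MSMO1, LBR and STARD4 lie to the right of every control, those of ELOVL6 to the left, and the GFP replicates are often far apart.

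Promoter sequence is shown for SREBF2, which encodes the sterol-responsive factor, for the 3 genes that kept their rise in every refit and for ELOVL6, which fell most against WT. Sequences and positions are from the RefSeq promoter table (GRCh38.p14), which covers 250 bases before to 50 bases after each start and matched 27 of the 31 genes. Only the stretch before the start that lies outside protein-coding exons is printed, 5′ to 3′ on the gene's strand. Capitals mark CCAAT boxes (CCAAT or its reverse complement ATTGG) and the sterol regulatory element (TCACNCCAC or its reverse complement GTGGNGTGA).
SREBF2: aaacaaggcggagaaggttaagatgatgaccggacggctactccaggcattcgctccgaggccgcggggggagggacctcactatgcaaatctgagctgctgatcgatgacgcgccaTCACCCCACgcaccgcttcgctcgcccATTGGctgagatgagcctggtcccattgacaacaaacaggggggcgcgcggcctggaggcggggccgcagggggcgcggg
MSMO1: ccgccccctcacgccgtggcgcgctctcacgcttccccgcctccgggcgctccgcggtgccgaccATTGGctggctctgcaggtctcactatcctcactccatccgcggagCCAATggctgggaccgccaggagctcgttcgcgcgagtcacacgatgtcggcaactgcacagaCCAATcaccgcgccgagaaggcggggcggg
STARD4: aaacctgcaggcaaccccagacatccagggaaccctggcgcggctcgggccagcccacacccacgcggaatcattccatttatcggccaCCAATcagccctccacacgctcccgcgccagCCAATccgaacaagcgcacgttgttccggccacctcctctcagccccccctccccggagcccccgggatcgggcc
LBR: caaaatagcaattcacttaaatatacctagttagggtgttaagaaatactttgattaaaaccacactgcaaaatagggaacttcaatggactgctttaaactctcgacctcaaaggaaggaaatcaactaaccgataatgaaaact
ELOVL6: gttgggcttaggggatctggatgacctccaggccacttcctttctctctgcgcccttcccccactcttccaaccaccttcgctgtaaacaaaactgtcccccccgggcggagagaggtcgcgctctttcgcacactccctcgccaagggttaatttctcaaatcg
The stretches are chr22:41832855-41833078 on the plus strand for SREBF2, chr4:165327419-165327622 on the plus strand for MSMO1, chr5:111512591-111512785 on the minus strand for STARD4, chr1:225428926-225429071 on the minus strand for LBR and chr4:110198677-110198841 on the minus strand for ELOVL6. In SREBF2 the sterol element TCACCCCAC begins 133 bases before the start, with an ATTGG at 106 bases, and the printed stretch overlaps an exon of the antisense gene SREBF2-AS1. It was the only one of the 27 matched genes whose window held these letters, beside 1.39% of all 27305 genes in the table. MSMO1 held 4 CCAAT boxes, at 185, 139, 76 and 34 bases before the start, the last of them past the printed stretch, and STARD4 held 2, at 161 and 130 bases. No CCAAT box was found in the windows of LBR and ELOVL6. Over the set, 19 of the 27 genes held a CCAAT box, beside 39.72% of all genes, and 25 held a GC box (GGGCGG or CCGCCC), beside 48.3%. Those motif counts cover both strands and the whole 300-base windows, where a gene can have several, and letters in a window say nothing about binding.

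Among the regulators, SREBF2, SREBF1 and INSIG1 rose against WT, and none of the 5 was called against GFP. SREBF2 had 3175 and 3211 normalised read counts for WT, 4444 and 3780 for GFP and 4703 and 4702 for RBMXL3. Both RBMXL3 libraries were above all controls, but GFP also lay above WT. The log2 change of SREBF2 was 0.55 (SE 0.10) against WT (limma adjusted p = 0.00191), 0.20 against GFP (limma adjusted p = 0.187) and 0.36 for GFP against WT (limma adjusted p = 0.0698). SREBF1, which encodes the SREBP forms most tied to fatty acid genes, had 1758 and 1866 for WT, 1916 and 1842 for GFP and 2128 and 2335 for RBMXL3. Its log2 change was 0.30 (SE 0.10) against WT (limma adjusted p = 0.037) and 0.24 against GFP (limma adjusted p = 0.0943). RBMXL3 was again above every control, but the call of SREBF1 was lost without either WT or either RBMXL3 replicate, without the filter, in summed TPM and with a replicate block.

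INSIG1, whose protein retains SCAP in the endoplasmic reticulum and which is itself a target of the SREBPs, had 575 and 441 normalised read counts for WT, 588 and 730 for GFP and 767 and 724 for RBMXL3. GFP replicate 2 overlapped RBMXL3. Its log2 change was 0.54 (SE 0.14) against WT (limma adjusted p = 0.0131), which was 0.36 without WT replicate 2 (limma adjusted p = 0.135), and 0.18 against GFP (limma adjusted p = 0.396). Its call was also lost without either RBMXL3 replicate and without the filter. SCAP, the escort protein, ranged from 1765 to 2373 normalised read counts over the 6 libraries, with the highest value in GFP replicate 1, and INSIG2 from 177 to 275. Neither was called in any comparison.

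Of the 8 genes that lead from acetyl-CoA to the isoprenoid diphosphates, MVK rose against both controls, and HMGCS1 and MVD rose against WT alone by the same threshold. MVK, mevalonate kinase (chr12:109573255-109598117, GENCODE 29 on GRCh38), had 474 and 440 normalised read counts for WT, 534 and 519 for GFP and 662 and 709 for RBMXL3. The groups did not overlap, and their means were 457 ± 23.8, 527 ± 10.6 and 685 ± 33.4 (SD, n = 2 each). The log2 change was 0.36 (SE 0.11) against GFP (limma adjusted p = 0.0357) and 0.56 (SE 0.11) against WT (limma adjusted p = 0.00312). The call against GFP was lost without either WT or either RBMXL3 replicate, without the filter, under DESeq2 and with a replicate block, and the call against WT without RBMXL3 replicate 2.

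HMGCS1, which makes HMG-CoA from acetoacetyl-CoA, ranged from 3750 to 3975 normalised read counts in WT, 4509 to 4770 in GFP and 4808 to 4971 in RBMXL3. Its log2 change against WT was 0.34 (SE 0.09, limma adjusted p = 0.0174), and that against GFP was 0.08 (limma adjusted p = 0.605). The call was lost without either WT or either RBMXL3 replicate and without the filter. MVD, mevalonate diphosphate decarboxylase, showed 930 and 983 for WT, 1337 and 1128 for GFP and 1324 and 1421 for RBMXL3. The change of MVD was 0.51 (SE 0.11) against WT (limma adjusted p = 0.00493) and 0.16 against GFP (limma adjusted p = 0.339), with RBMXL3 and GFP overlapping. MVD lost its call without WT replicate 1, without RBMXL3 replicate 2 and in summed TPM.

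FDPS, farnesyl diphosphate synthase, was highest in GFP in the gene table but not in TPM. It had 4675 and 4884 normalised read counts for WT, 6238 and 6064 for GFP and 5133 and 5029 for RBMXL3, with no overlap between the groups. Its log2 change was 0.36 (SE 0.09) for GFP against WT (limma adjusted p = 0.0496), -0.27 for RBMXL3 against GFP (limma adjusted p = 0.0514) and 0.09 for RBMXL3 against WT (limma adjusted p = 0.498). The GFP call was lost without either WT or either RBMXL3 replicate and in 6 of the 9 other settings, among them edgeR and summed TPM. In TPM the means were 269 ± 6.67 for WT, 303 ± 11 for GFP and 311 ± 5.23 for RBMXL3 (SD, n = 2 each), and the change against GFP was 0.04 (limma adjusted p = 0.785). In the gene table, the cytosolic thiolase ACAT2, phosphomevalonate kinase PMVK, the isomerase IDI1 and geranylgeranyl diphosphate synthase GGPS1 were called in no comparison. PMVK lay between 906 and 923 for WT, 1033 and 1086 for GFP and 1088 and 1120 for RBMXL3. In summed TPM, PMVK had 71.9 and 72.3 in RBMXL3 against 54.3 to 56.8 in the controls. It was called there against WT (limma adjusted p = 0.0341) but not against GFP (limma adjusted p = 0.0524). IDI1 ranged from 1577 in GFP replicate 1 to 2318 in GFP replicate 2. GGPS1 ranged from 150 in GFP replicate 1 to 344 in RBMXL3 replicate 1, and 37.3% of its exon length is shared with TBCE on the same strand. ACAT2 had 130 to 209 normalised read counts. Of its exon length, 33.9% lies opposite SOD2-OT1, which had 0 reads in every library, and 26.5% opposite SOD2. Another overlap, 9.2%, lies opposite TCP1, which had 11197 to 24193 reads. Because the strand setting of the counting is not given, the values of ACAT2 are uncertain. Those of GGPS1 are uncertain under any strand setting, since TBCE lies on the same strand.

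From squalene to lanosterol the 3 genes followed different patterns. SQLE, squalene epoxidase, an oxygen-requiring and rate-limiting step, had 4244 and 3715 normalised read counts for WT, 3518 and 4755 for GFP and 5679 and 5605 for RBMXL3. Both RBMXL3 libraries were above all controls, while GFP spread widely around WT. Its log2 change was 0.46 (SE 0.13) against GFP (limma adjusted p = 0.0254) and 0.50 (SE 0.13) against WT (limma adjusted p = 0.0124). Leaving out GFP replicate 1 lowered it to 0.25 against GFP, which was not called (limma adjusted p = 0.0671). That call was also lost without either RBMXL3 replicate, and the call against WT without either WT or either RBMXL3 replicate.

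FDFT1, squalene synthase, which commits the pathway to sterols, was also highest in GFP in the gene table alone. The values were 7690 and 7116 for WT, 9933 and 9991 for GFP and 8448 and 8177 for RBMXL3. The 3 groups did not overlap, and the log2 change was 0.43 (SE 0.10) for GFP against WT (limma adjusted p = 0.0364), -0.26 for RBMXL3 against GFP (limma adjusted p = 0.072) and 0.17 for RBMXL3 against WT (limma adjusted p = 0.205). The GFP call was lost without either WT or either RBMXL3 replicate, without the filter on low values, in summed TPM and with a replicate block. TPM means of FDFT1 were 246 ± 11.4, 294 ± 9.86 and 310 ± 3.14 (SD, n = 2 each), with RBMXL3 above all controls and a change of 0.07 against GFP (limma adjusted p = 0.618). LSS, lanosterol synthase, had 2340 and 2446 for WT, 3326 and 2768 for GFP and 2705 and 2959 for RBMXL3 and was not called in any comparison.

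The 9 genes between lanosterol and cholesterol held the largest rises and falls of the sterol genes. MSMO1, a methylsterol monooxygenase that removes methyl groups from the sterol ring (chr4:165327623-165343160), had 912 and 1043 normalised read counts for WT, 815 and 1399 for GFP and 2145 and 1914 for RBMXL3. RBMXL3 was above all controls, and the GFP replicates lay on both sides of WT. Group means were 977 ± 92.6 for WT, 1107 ± 413 for GFP and 2030 ± 163 for RBMXL3 (SD, n = 2 each). The log2 change was 0.91 (SE 0.18) against GFP (limma adjusted p = 0.00558) and 1.04 (SE 0.18) against WT (limma adjusted p = 0.00167). Against GFP its size depended on the GFP replicate used: 0.53 without GFP replicate 1 and 1.29 without GFP replicate 2, called both times.

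LBR and TM7SF2 both encode reductases of the sterol ring that catalyse the same reaction, and LBR is also the lamin B receptor of the inner nuclear membrane. LBR (chr1:225401502-225428925) had 4189 and 4252 normalised read counts for WT, 3199 and 4167 for GFP and 6669 and 6360 for RBMXL3. The RBMXL3 libraries were far above all controls, with log2 changes of 0.83 (SE 0.12) against GFP (limma adjusted p = 0.000898) and 0.62 (SE 0.12) against WT (limma adjusted p = 0.00239). TM7SF2 had 693 and 695 for WT, 1048 and 978 for GFP and 1039 and 1051 for RBMXL3. GFP and RBMXL3 overlapped and both stood above WT. For TM7SF2 the log2 change was 0.57 (SE 0.10) for RBMXL3 against WT (limma adjusted p = 0.00159), 0.53 (SE 0.10) for GFP against WT (limma adjusted p = 0.0207) and 0.04 for RBMXL3 against GFP (limma adjusted p = 0.79). The RBMXL3 call against WT was kept in all 6 refits that left out a library, and the GFP call in those without either GFP replicate.

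EBP and NSDHL, both X-linked, fell against GFP. EBP, a sterol isomerase (chrX:48521158-48528716), had 649 and 622 normalised read counts for WT, 1069 and 863 for GFP and 565 and 584 for RBMXL3. In normalised read counts RBMXL3 was below every control, and GFP above WT. The log2 change was -0.72 (SE 0.12) against GFP (limma adjusted p = 0.00205), -0.14 against WT (limma adjusted p = 0.403) and 0.58 (SE 0.12) for GFP against WT (limma adjusted p = 0.0271). The fall against GFP was called in all 6 refits, and the rise of GFP over WT was not called without either WT replicate or RBMXL3 replicate 1. NSDHL, a sterol dehydrogenase that acts after MSMO1 in removing the methyl groups (chrX:152830967-152869729), had 1275 and 1211 for WT, 1677 and 1525 for GFP and 1114 and 1111 for RBMXL3. Here too RBMXL3 was below and GFP above WT. The change of NSDHL was -0.51 (SE 0.10) against GFP (limma adjusted p = 0.00425), a call lost without either RBMXL3 replicate, and -0.16 against WT (limma adjusted p = 0.253). The falls of EBP and NSDHL against GFP thus stand beside GFP values above those of WT, by 0.58 and by 0.36, the latter not called (limma adjusted p = 0.0671).

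HSD17B7, the ketoreductase of methyl group removal, and DHCR7, a terminal reductase, rose against WT and lay close to GFP. HSD17B7 had 290 and 322 normalised read counts for WT, 404 and 467 for GFP and 438 and 437 for RBMXL3, a log2 change of 0.48 (SE 0.12) against WT (limma adjusted p = 0.0121). DHCR7 had 2406 and 2447 for WT, 3468 and 2863 for GFP and 3109 and 3144 for RBMXL3, a change of 0.36 (SE 0.11) against WT (limma adjusted p = 0.0221). Leaving out WT replicate 1 or either RBMXL3 replicate ended both calls, and that of DHCR7 was also lost without WT replicate 2, without the filter and in summed TPM. SC5D, a sterol desaturase, was the one gene of these steps that fell against WT, by 0.34 on the log2 scale (SE 0.12, limma adjusted p = 0.0484), a call that was lost in most alternative settings. It had 1832 and 1633 for WT, 1237 and 1581 for GFP and 1376 and 1342 for RBMXL3, so GFP and RBMXL3 overlapped.

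CYP51A1, the lanosterol demethylase, had only 30.5 to 52.7 normalised read counts in the 6 libraries and was not called. Its count is uncertain: 79.4% of its exon length is shared with the same-strand gene AC000120.2, which had 0 reads in every library. In the TPM table, which is per length, CYP51A1 ranged from 30.7 to 38.3 TPM, near MSMO1 in WT at 35.5 and 40.2 TPM. Both RBMXL3 libraries were above all controls in TPM, and it was not called there either.

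The 2 transport genes moved in opposite directions. STARD4, a soluble carrier that moves cholesterol between membranes (chr5:111496033-111512590), had 531 and 570 normalised read counts for WT, 473 and 634 for GFP and 906 and 910 for RBMXL3. Both RBMXL3 libraries exceeded all controls, and the means of WT and GFP were close, 551 ± 28.0 and 553 ± 113 (SD, n = 2 each). The log2 change was 0.71 (SE 0.13) against GFP (limma adjusted p = 0.00369) and 0.70 (SE 0.13) against WT (limma adjusted p = 0.00242). NPC1, which exports cholesterol from late endosomes and lysosomes (chr18:23506184-23586898), had 1883 and 1924 for WT, 2038 and 1783 for GFP and 1492 and 1525 for RBMXL3. RBMXL3 was below all controls, at -0.33 (SE 0.10) against GFP (limma adjusted p = 0.0338) and -0.33 (SE 0.10) against WT (limma adjusted p = 0.0263). In summed TPM its values overlapped: 24.7 and 26.8 for WT, 24.2 and 20.9 for GFP and 22.4 and 23.5 for RBMXL3, a change of 0.03 against GFP (limma adjusted p = 0.894) where the median of all genes was 0.13. Of the 6 refits that left out a library, the one without GFP replicate 2 kept the call against GFP, and those without either GFP replicate kept the call against WT. Leaving out a GFP library does not alter the log2 change against WT.

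Of the 4 fatty acid genes, ELOVL6 fell against both controls and ACACA, FASN and SCD were not called. ELOVL6, the elongase that lengthens palmitate (chr4:110045846-110199199), had 4065 and 3610 normalised read counts for WT, 3044 and 3364 for GFP and 2333 and 2329 for RBMXL3. The 3 groups did not overlap, with means of 3837 ± 322, 3204 ± 226 and 2331 ± 2.76 (SD, n = 2 each). The log2 change was -0.71 (SE 0.10) against WT (limma adjusted p = 0.00043), called in all 6 refits, and -0.45 (SE 0.10) against GFP (limma adjusted p = 0.0087), a call lost without either RBMXL3 replicate.

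ACACA, acetyl-CoA carboxylase, which makes the malonyl-CoA used by fatty acid synthase, had 2070 and 2011 normalised read counts in RBMXL3, below the 2079 to 2876 of the controls, with a log2 change of -0.29 against GFP (limma adjusted p = 0.127). FASN, fatty acid synthase, ranged from 23893 to 34897 normalised read counts and its change against GFP was 0.00 (limma adjusted p = 0.997). SCD, the desaturase that makes oleate, was slightly above all controls at 29217 and 29520 against 23930 to 29153. In summed TPM, SCD had 336 and 352 in RBMXL3 against 253 to 278 in the controls. It was called there against WT (limma adjusted p = 0.0305) but not against GFP (limma adjusted p = 0.0691). Per length, SCD, FASN, FDPS and FDFT1 were the most abundant of the 31 genes in each of the 6 libraries, at 238 to 373 TPM. ACAT2 and INSIG2 were the least abundant, at 4.83 to 11.7 TPM.

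**Figure D2:**
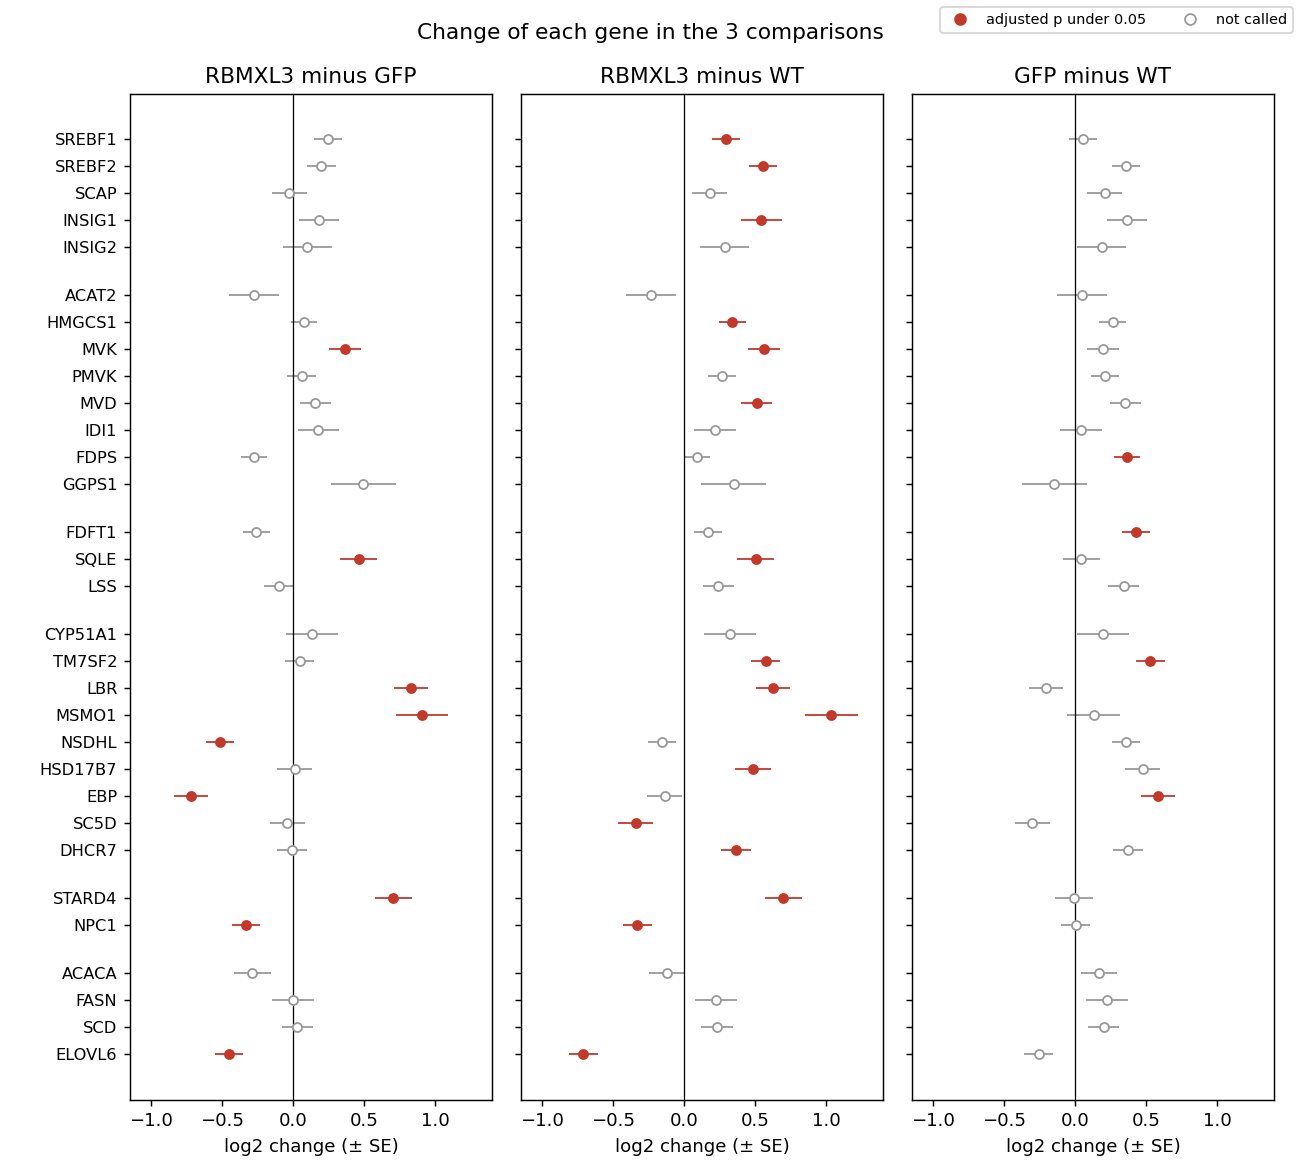
Log2 change (points, with the standard error) of each gene in the 3 comparisons, with calls at a limma adjusted p under 0.05 filled. MSMO1, LBR, STARD4, SQLE and MVK are called higher and ELOVL6 and NPC1 lower in both RBMXL3 panels, and EBP and NSDHL are called lower only against GFP.

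The transcript table gave a partly different picture. With TPM summed per gene, 3 of the 31 genes were called against GFP, beside 6.93% of all genes. LBR, SQLE and MVK were the 3, all higher and 0 lower, beside 5.46% and 1.47%. Against WT, 11 were called, beside 11.5% of all genes, 10 higher and 1 lower, beside 6.97% and 4.52%. MVK and SQLE were the 2 called against both, beside 4.59%, both higher and 0 lower, beside 3.47% and 1.12%. For GFP against WT 0 genes of the set were called by limma, beside 0.0% of all genes, of which 2214 had an unadjusted p under 0.05. In the gene table edgeR called 3 genes of the set for this contrast, beside 422 of the 16642 genes it tested. The median of all genes in TPM was 0.13 against GFP, 0.03 against WT and -0.09 for GFP against WT, and that of the set 0.19, 0.31 and 0.10. Relative to that shift, rises against GFP in TPM were smaller than they read and falls larger.

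MSMO1 had 35.5 and 40.2 TPM for WT, 35.3 and 51.1 for GFP and 73.0 and 67.7 for RBMXL3, a log2 change of 0.88 against WT (limma adjusted p = 0.0289) and 0.71 against GFP (limma adjusted p = 0.0567). LBR had 103 and 95.9 TPM for WT, 71.6 and 90.8 for GFP and 137 and 124 for RBMXL3, with 0.69 against GFP (limma adjusted p = 0.0352) and 0.39 against WT (limma adjusted p = 0.101). STARD4 had 13.8 and 16.0, 14.1 and 16.3, and 18.4 and 18.6 TPM, a change of 0.27 against GFP (limma adjusted p = 0.204). RBMXL3 was above every control for these 3 genes in both tables, but the change of STARD4 in TPM was less than that in read counts. In TPM, both RBMXL3 libraries lay above all controls for 16 of the 31 genes, beside 27.5% of all genes. They lay below for 1, beside 12.7%. EBP and NSDHL changed by -0.25 and -0.20 in TPM against GFP, with limma adjusted p = 0.169 and 0.189, against -0.72 and -0.51 in the gene table. In TPM neither was below all controls. EBP had 114 and 120 in RBMXL3 against 104 and 103 in WT, and NSDHL 42.1 and 43.5 against 43.7 and 41.7.

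**Figure D3:**
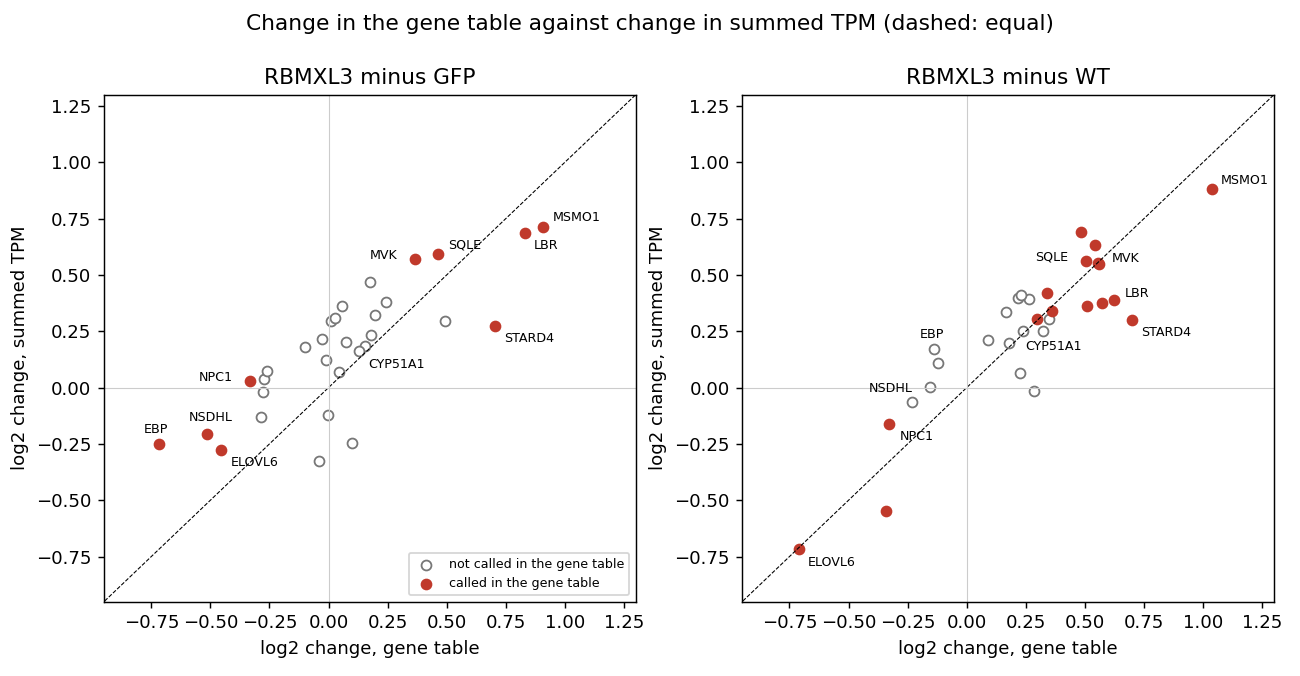
Log2 change of the 31 genes in the gene table (x axis) against that in summed TPM (y axis), for RBMXL3 minus GFP and RBMXL3 minus WT, with the line of equality dashed. Against GFP, NPC1 lies just above 0 in TPM and EBP, NSDHL and STARD4 lie off the line, toward 0 in TPM.

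Of the transcripts of these genes, 148 were tested. The same transcript was the 1 called against GFP, beside 1.25% of the 44693 transcripts tested, the 1 called against WT, beside 1.53%, and the 1 called against both, beside 0.929%. It was TM7SF2-222 (ENST00000532328.5, chr11:65113371-65115436, GENCODE 29), annotated as a retained intron, with 7.75 and 11.9 TPM in WT and 11.5 and 11.7 TPM in GFP. In both RBMXL3 libraries it was listed at 0, and it was called lower (as were 0.557% of all transcripts against both controls), against GFP (limma adjusted p = 0.0132) and WT (limma adjusted p = 0.0144). Against both controls the call was lost in 5 of the 6 refits that left out a library, being kept without GFP replicate 2, and with a replicate block. The coding transcript TM7SF2-201 had 23.9 and 22.0 TPM for WT, 30.1 and 28.2 for GFP and 38.2 and 38.4 for RBMXL3. RBMXL3 was above all controls for that transcript, with limma adjusted p = 0.158 against GFP. An estimate per transcript does not show splice junctions, and a value of 0 in such a table can be a failed estimate.

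FASN-202, a retained-intron transcript, had 66.8 and 48.9 TPM for WT, 97.1 and 40.2 for GFP and 16.3 and 23.8 for RBMXL3, below all controls but not called (limma adjusted p = 0.17 against GFP). The coding FASN-201 had 170 and 208, 226 and 165, and 207 and 227 TPM, with the groups overlapping. Retained-intron transcripts made up 7.82% and 7.64% of the summed TPM of the 31 genes for WT, 9.05% and 6.75% for GFP and 5.24% and 4.34% for RBMXL3. RBMXL3 was lowest, while over all genes the share ranged from 3.98% to 4.61%. Without FASN the shares were 5.22% and 6.17%, 5.93% and 5.57%, and 4.97% and 3.84%, and RBMXL3 was still below all controls. The retained-intron TPM itself then overlapped, at 99.8 and 117 for WT, 123 and 116 for GFP and 116 and 91.9 for RBMXL3. The share was not tested. SQLE-201, the main coding transcript of SQLE, was at 67.2 and 57.5 TPM for WT, 51.5 and 68.3 for GFP and 110 and 113 for RBMXL3, while another coding transcript, SQLE-206, had 22.5 and 24.0 TPM in RBMXL3 against 27.8 to 31.6 in the controls, and neither was called.

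**Figure D4:**
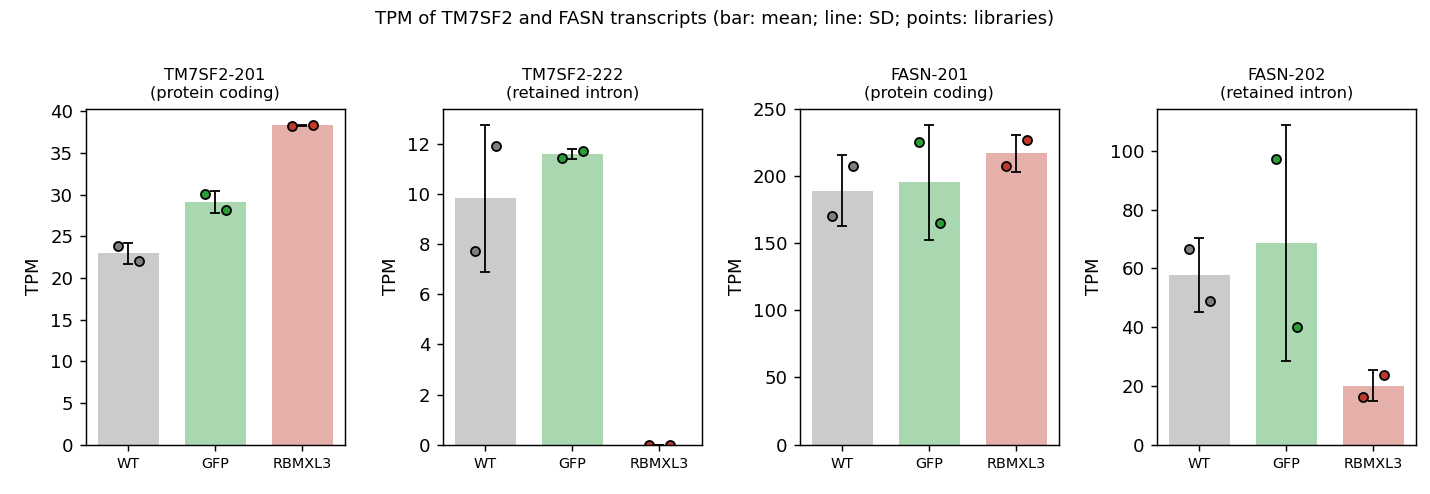
TPM of the coding and the retained-intron transcript of TM7SF2 and of FASN in each library, with bars for the mean and lines for the SD of 2 libraries. TM7SF2-222 is listed at 0 in both RBMXL3 libraries, and FASN-202 is lower there than in any control.

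Other genes of lipid metabolism, taken as lists from pathway knowledge, held calls in both directions, beside 20.9% of all genes called against GFP and 29.9% against WT. Of 26 tested genes of fatty acid synthesis and activation, 2 rose and 3 fell against GFP, and 5 rose and 4 fell against WT, with a median log2 change of 0.04 in both, so that 19.2% and 34.6% of the list were called. ME1, which supplies NADPH, fell by 0.60 against GFP and by 0.63 against WT. ELOVL1, an elongase of very long chains, fell by 0.63 and by 0.51, and FADS3 rose by 0.50 and 0.60. Of 20 tested genes of cholesterol uptake, transport and efflux, 2 rose and 2 fell against GFP and 3 rose and 1 fell against WT, 20% of the list each time. TMEM41B, a lipid scramblase, rose by 0.88 and 0.87 and GRAMD1A by 0.48 and 0.64, and OSBP fell by 0.35 and 0.35. Among 19 genes of SREBP processing and transport, 2 rose and 3 fell against GFP and 1 rose and 6 fell against WT, 26.3% and 36.8% of the list. SAR1A fell by 0.55 and 0.60, and SEC23B, a component of the vesicle coat that carries SCAP, by 0.54 and 0.50. PAQR3 rose by 0.49 and 0.40. Of 14 tested genes that use the isoprenoids, 2 rose and 3 fell against GFP and 0 rose and 3 fell against WT, 35.7% and 21.4% of the list. PDSS1, which makes the ubiquinone side chain, fell by 0.81 and 0.76, and the farnesyltransferase subunit FNTB by 0.59 and 0.71. Each of the genes named here passed the limma threshold against both controls in the gene table. In summed TPM, ME1, TMEM41B and PDSS1 did so too, and the other genes named here did not.

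Markers of other cell types were low. The Leydig cell list, of interest because Leydig cells make steroids from cholesterol, had CYP17A1 at 0 reads in all libraries, STAR, HSD3B2, INSL3 and LHCGR at 0 or 1 read, and only CYP11A1 above 1 read, at 1.78 to 2.46 TPM in the controls and 3.63 and 5.55 TPM in RBMXL3. The summed TPM of 5 Sertoli markers was 7.63 to 10.2 in the controls and 14.0 and 14.7 in RBMXL3. That of 6 blood, endothelial and fibroblast markers was 5.04 to 8.98 in the controls and 12.5 and 13.3 in RBMXL3, with PTPRC at 0 or 1 read. Those sums were thus higher in RBMXL3, at a level under that of most sterol genes, but not every marker rose. AMH, SOX9, CDH5 and COL3A1 were above all controls, COL3A1 at 5.94 TPM in both RBMXL3 libraries against 1.31 to 2.31. COL1A1, at 5.77 and 6.58 TPM, overlapped GFP, and INHBB, at 0.217 and 0.274, overlapped WT. DCN, at 0.0445 and 0, was below WT. The embryonal carcinoma list was 27.0 to 34.7 TPM in the controls and 39.3 and 42.1 in RBMXL3. Their part in the changes above was not tested.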

How the data were processed

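Polyadenylated RNA of 6 TCam-2 libraries was sequenced from a stranded mRNA kit, per the labels' protocols. The submitters' processing notes name Trim Galore 0.6.10, STAR 2.7.11a, DESeq2, Salmon 1.10.2 and GRCh38; the read counter, annotation and strand setting are not given in the sources used here. The deposited gene table holds a normalised signal: the authors' read counts divided by 1 size factor per library. Of its 145320 nonzero values, 100% came out as whole reads within 0.01, and edgeR 4.0.16 on those reads called 2851 genes against GFP, 4228 against WT and 422 for GFP against WT. The second deposited table holds the authors' salmon TPM for 251955 transcripts, 80.0% of which matched GENCODE 29, with 94.7% to 95.1% of the TPM of a library. Columns belonging to no sample numbered 0.

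The plan had assumed CPM, so gene values were divided by a common factor, 23.9, before use. Genes at 1 or more in at least 2 libraries were kept, and limma 3.58.1 in R 4.3.3 was run on log2(value + 1), 2-sided, in 1 fit of all 6 libraries with an intensity trend and Benjamini-Hochberg adjustment over all genes. Fold changes on this scale understate the change of low genes. Normalised read counts and SDs are of the deposited values. TPM keeps no depth, and was tested as log2(TPM + 1) per gene and per transcript.

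The genes, their roles, the other lists and the promoter motifs were chosen with earlier results of these data known. All 31 genes were described. From the other lists, at most 3 genes called against both controls were named. The called transcript, a retained intron of TM7SF2, was named. The other named transcripts, of TM7SF2, FASN and SQLE, were not called. They were chosen from the 63 transcripts of the set with a mean of at least 5 TPM. That threshold alone did not select them, so they do not stand for the rest. Alternatives were pseudocount 0.1, a mean of at least 5, no filter, quantile normalisation, edgeR, DESeq2 1.42.0, summed TPM, a replicate block and leaving out each library. The scripts were tested on simulated data. A count of 0 allows up to 3 reads, for counting error only.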

Additional observations from a re-analysis of the deposited data

How the results depend on the processing

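Over all genes, the filter kept 14292, of which 2986 were called against GFP, 4271 against WT and 1964 against both. Without it 30989 were tested, and 950, 2327 and 673 were called, with 0 for GFP against WT. Gene counts over all genes are not given for the replicate block or for refits without 1 library. Counts of the 31 genes called depended on the filter on low values, the table used and single libraries. Against GFP, 9 became 3 without the filter and 3 in summed TPM, and 4 to 14 when 1 library was left out. Against WT, 16 became 9 without the filter, and 6 to 21 when 1 library was left out. Calls against both controls, 7, became 1 without the filter, 2 in summed TPM and 3 to 8 when 1 library was left out. For GFP against WT, 4 became 0 without the filter, 0 in summed TPM and 0 to 16 when 1 library was left out. The 1 transcript called against both controls was called in 0 to 1 when 1 library was left out. Replicate numbers did not pair the samples, with correlations of deviations of -0.16 for WT and GFP, 0.03 for WT and RBMXL3 and -0.09 for GFP and RBMXL3. With a replicate block, 7 genes were called against GFP, 14 against WT, 5 against both, 2 for GFP against WT and 0 transcripts. With the GFP numbers crossed in the block, an alternative chosen after seeing the data, 10 were called for GFP against WT. NPC1 against GFP changed sign in summed TPM, at 0.028, where the median of all genes was 0.13. Of the 29 calls, edgeR, DESeq2, quantile normalisation, pseudocount 0.1 and a mean of at least 5 each kept 27, the replicate block kept 23, no filter 12 and summed TPM 12 with 1 reversed. Leaving out 1 library kept 15 and 16 for WT replicate 1 and 2, 27 and 29 for GFP and 12 and 11 for RBMXL3. The cause of these shifts was not tested. Depth was lowest in the RBMXL3 libraries, and 2 libraries a group limit the precision of every SD here.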
